A study of Mus musculus with 5 samples.

Results

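The Hedgehog pathway genes considered here are Shh, Ptch1, Smo, Gli1, Gli2, Gli3, Hhip, Sufu, Boc and Cdon, followed over chemically induced neural progenitor cells (ciNPC), neural progenitor cells from mouse brain (NPC) and mouse embryonic fibroblasts (MEF). Their probes were taken as all probes, other than controls, whose gene name in the array files is 1 of these 10 symbols. This found all 10 genes, of 36163 names on the array, with 15 probes of 55681 on the array design: 2 probes each for Ptch1, Smo, Hhip, Sufu and Cdon and 1 for each of the other 5 genes. Where a gene has 2 probes, A is the brighter and B the dimmer. RNA was hybridised to 5 arrays with 1 dye: ciNPC at passage 13 (p13, 2 arrays), ciNPC at passage 5 (p5, 1 array), NPC (1 array) and MEF (1 array). Per the series title, ciNPC were obtained from MEF with a cocktail of chemicals under hypoxia, and no transgene is named in the labels. The labels give neither the strain or age of the animals nor the compounds. They do not say whether the p13 arrays were separate cultures, so the scatter among arrays behind the p-values may be technical. Against MEF or NPC, that scatter also holds the difference between p5 and p13. The fit further draws the variance of each probe towards that of all probes.

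Hedgehog ligands bind Patched receptors, which in the absence of ligand hold the membrane protein Smoothened inactive. Bound Patched releases Smoothened, signalling proceeds through the primary cilium, and the GLI transcription factors change from repressors into activators. In the developing neural tube the pathway patterns ventral cell types, and in brain it maintains the division of several kinds of progenitors. Ptch1, Hhip and Gli1 are themselves transcribed in response to signalling and are commonly read as its outputs, whereas Gli2 carries most of the activator function and Gli3 most of the repressor function in mouse embryos.

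Values are log2 of the processed spot intensity minus the 75th percentile of the same array, so that a value of 0 is a probe at that percentile and 1 unit is 2-fold. A level of 1 probe was set only against the level of the same probe on another array. The share of spots well above background ran between 47.9% and 57.6% over the 5 arrays, and ciNPC p13 replicate 2 had a spike-in slope (0.803) outside the range that the scanner software accepts. MEF and NPC shared 1 slide and the 3 ciNPC arrays another, so that slide and cell type cannot be told apart where ciNPC is set against MEF or NPC, whereas NPC against MEF and p13 against p5 lie within a slide. Of 12 neural progenitor markers, all 12 were above background on the 3 ciNPC arrays and on NPC, and 6 on MEF. All 10 fibroblast markers were above background on the 3 ciNPC arrays and on MEF, with mean log2 levels between 3.14 and 3.69 in ciNPC and of 6.38 in MEF, against 6 of 10 and a mean of -3.19 in NPC. Neuron markers above background numbered 5 to 6 of 6 in ciNPC, 5 in NPC and 4 in MEF. Of 5 astrocyte markers, 3 to 5 were above background in ciNPC, 5 in NPC and 4 in MEF, and of 5 oligodendrocyte markers, 4 in ciNPC, 4 in NPC and 5 in MEF. Of 5 macrophage markers, 2 to 4 were above background in ciNPC, 3 in NPC and 3 in MEF, and of 4 endothelial markers, 1 to 2 in ciNPC, 2 in NPC and 2 in MEF. Of 4 epithelial markers, 2 to 3 were above background in ciNPC, 1 in NPC and 2 in MEF, and of 4 muscle markers, 3 in ciNPC, 0 in NPC and 2 in MEF. Within these lists, Ptprc, Cdh5, Tek, Cdh1 and Myod1 were above background on none of the arrays. In bulk RNA, fewer cells of a type and less RNA per cell cannot be told apart, and the part of these markers in the differences below was not tested.

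The probes are 60-mers, and the last 30 bases of 7 of them are printed here because the results turn on these probes or on the disagreement within a pair. Capitals mark runs of at least 2 CA or AC units.
Ptch1 probe A: aggtggaggtcatagagctacaggacgtgg
Ptch1 probe B: gatctttgctgatatttataattttgtatc
Smo probe A: ttcaagaaccagacaacaggatgccttaga
Smo probe B: ACACACatACACtctCACACACACAgacag
Gli1 probe: gaaagaacaaactttaataatgACACagtt
Gli3 probe: tcctgcagatgtgtaaaataaactgtgttc
Hhip probe A: ttttgtctctgttactttctcttcatagtc
Smo probe B stands apart from the other 14 in sequence. It holds 23 overlapping CACA or ACAC words over its 60 bases, a number reached by 14 of 55681 probes (0.0251%), while no other member probe holds more than 2. Ptch1 probe B is the poorest in G and C of the 15, at 21.7%, against 53.3% for Ptch1 probe A.

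Between cell types, 13 of the 15 probes, from 9 of the 10 genes, could be tested, namely those that all arrays of some group (ciNPC p13, ciNPC p5, NPC or MEF) had well above background. To pass, a probe needed a difference of at least 2-fold and an adjusted p under 0.05 (limma, Benjamini-Hochberg over 35588 probes). Against MEF, 5 of 13 probes passed in ciNPC, 2 higher (Ptch1 probe A and Cdon probe A) and 3 lower (Gli2, Gli3 and Smo probe B). Of all probes tested, 23.8% passed in this comparison, 12.5% higher and 11.3% lower. The split was 3 higher and 2 lower when the 75th percentile was taken over probes detected on all arrays. Against NPC, 0 of 13 passed, and the count was 0 under each of the other 13 settings too. An unadjusted p under 0.05 (limma) was found for 4 of the 13, and for 4824 of all 35588 probes. Of all probes tested, 2.78% passed against NPC, nearly all of them higher, with 0.0534% of all probes lower. The MEF array lay below all 3 ciNPC arrays for 4 of the 13 probes (36.7% of all probes), above them for 6 (39.4%) and within their range for 3 (23.9%). The NPC array lay below them for 3 (22.4%), above them for 4 (40.0%) and within their range for 6 (37.6%). The median log2 difference of the 13 probes was 0.21 against MEF, with -0.09 over all probes, and -0.17 against NPC, with -0.12 over all probes.

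**Figure D1:**
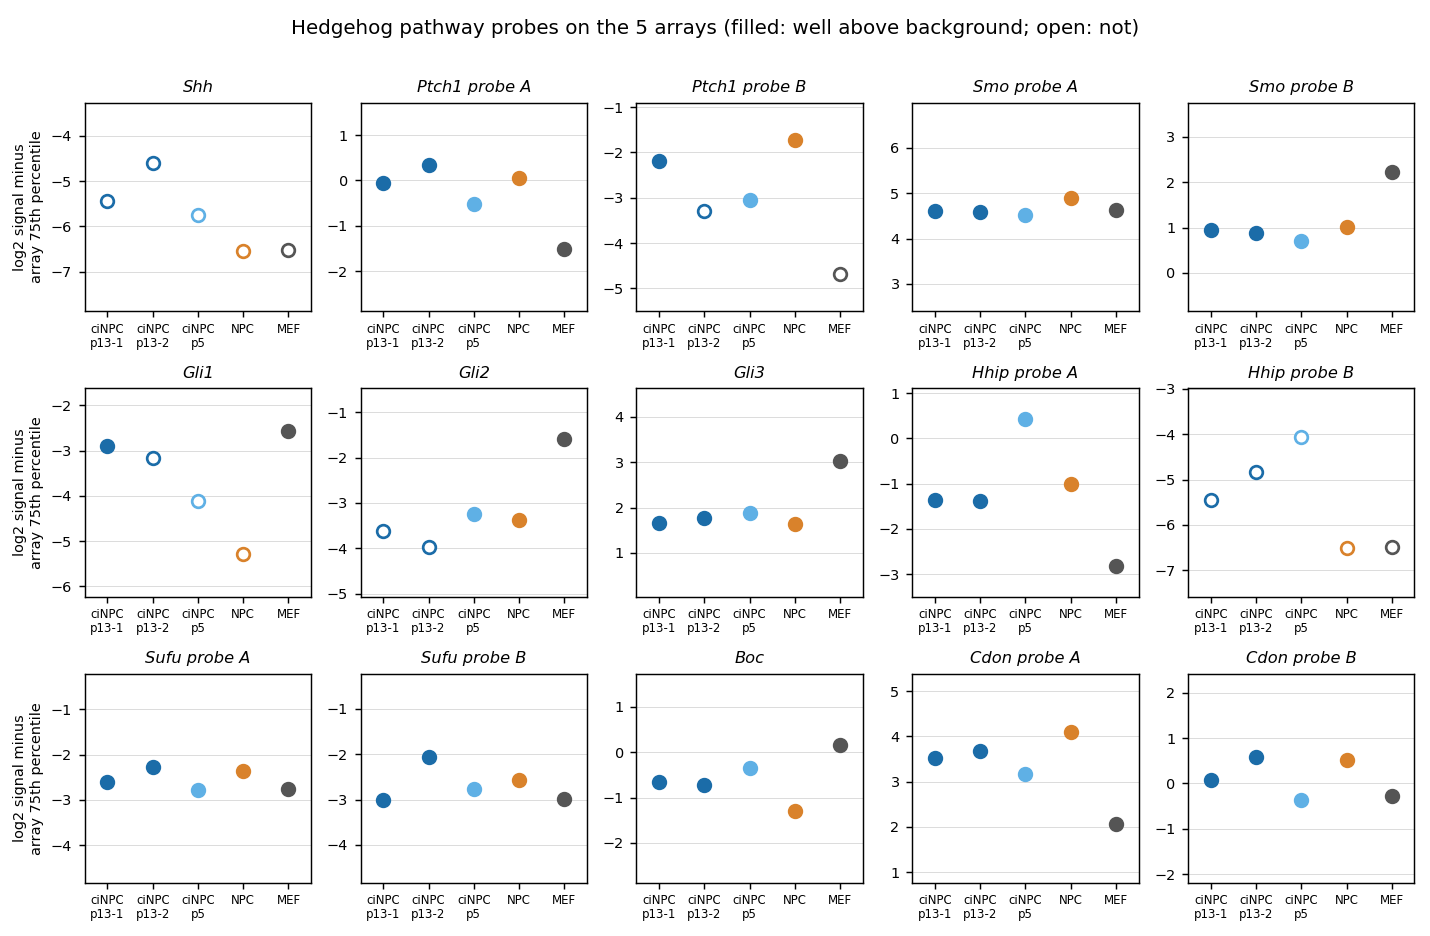
Log2 level of each of the 15 Hedgehog probes on ciNPC p13 replicates 1 and 2, ciNPC p5, NPC and MEF, in units relative to the array's 75th percentile, 1 point per array; every panel spans the same number of log2 units around its own centre. Filled points are well above background and open points are not. MEF stands below the ciNPC arrays for Ptch1, Hhip probe A and Cdon probe A and above them for Gli2, Gli3 and Smo probe B, and Shh is open on all 5 arrays.

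Shh encodes the ligand Sonic hedgehog. Its probe, on chromosome 5 at 28783983 to 28784042 (mm9), is spotted 10 times on each array. It was not well above background on any of the 5 arrays, with log2 values of -5.43 and -4.59 in ciNPC p13, -5.74 in ciNPC p5, -6.55 in NPC and -6.52 in MEF. Values this low have no order between arrays, and no fold is given. Shh was therefore not detectable in any of the 3 cell types with this probe.

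The other ligand genes and the genes for ligand release, 8 in all, gave 1 that rose and 3 that fell against MEF (12.5% and 11.3% of all probes) and 1 that rose against NPC (2.73% of all probes). Dhh, the gene of Desert hedgehog, had log2 values of 1.54 and 1.83 in ciNPC p13, 1.02 in ciNPC p5 and 2.31 in NPC, all above background, and was under background in MEF at -6.58. It rose at least 54.0-fold in ciNPC against MEF (adjusted p 1.81e-05, limma) and differed by -0.85 log2 units from NPC (SE 0.32, adjusted p 0.328). Ihh, the gene of Indian hedgehog, was under background in ciNPC (-3.80, -3.12 and -4.17) and in MEF (-4.30), and above it in NPC (-3.73). Of the 3 ligand genes, Dhh alone was above background in ciNPC.

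The genes that fell against MEF act in ligand maturation and release. Hhat, which encodes the enzyme that palmitoylates the ligands, had -0.77 and -0.72 in ciNPC p13, -0.12 in ciNPC p5, -1.48 in NPC and 2.61 in MEF, a log2 difference from MEF of -3.15 (SE 0.31, adjusted p 0.000454); its dimmer probe differed by -0.95 and did not reach 2-fold. Disp1, which encodes a protein that exports lipid-bearing ligand, differed by -1.05 (SE 0.21, adjusted p 0.00888). Scube1, of a family of secreted proteins of which some members carry released ligand, was under background on the 3 ciNPC arrays and at least 3.67-fold lower than in MEF (adjusted p 0.0345); it entered the test through MEF alone, and the call was lost with the authors' table, with quantile normalisation, without the filter on dim probes, without the trend and without ciNPC p13 replicate 1. Its relative Scube3 was under background in NPC, and ciNPC was at least 7.48-fold above that (adjusted p 0.00283, limma). The other Scube3 probe was not tested. Disp2 and Scube2 differed from MEF by -0.23 (SE 1.17) and -0.32 (SE 0.51) and did not pass; a dimmer Scube2 probe passed at -2.16.

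Ptch1 encodes the principal Hedgehog receptor, an inhibitor of Smoothened and a target of the pathway. Probe A lies on chromosome 13 at 63612879 to 63612938, minus strand (mm9), and read -0.05 and 0.34 in ciNPC p13, -0.52 in ciNPC p5, 0.06 in NPC and -1.51 in MEF. The 3 ciNPC arrays and NPC thus lay above MEF, and NPC lay within the ciNPC range. The log2 difference from MEF was 1.43 (SE 0.35, adjusted p 0.0187), which is 2.69-fold, and that from NPC was -0.14 (SE 0.35, adjusted p 0.894). The call against MEF was lost with quantile normalisation (adjusted p 0.0541), with the authors' deposited table (0.0541) and without the intensity trend (0.100).

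Probe B of Ptch1 lies 2581 bases further 3′ at 63610298 to 63610357. It read -2.19 and -3.29 in ciNPC p13, -3.05 in ciNPC p5, -1.72 in NPC and -4.69 in MEF. It was above background on ciNPC p13 replicate 1, ciNPC p5 and NPC, and the cell type means had the order of probe A, NPC above ciNPC above MEF. The measured log2 difference of 1.85 from MEF (SE 0.63, adjusted p 0.0638, limma) did not pass, and 1 of the 3 ciNPC arrays, p13 replicate 2, was under background. MEF was under background too, so 1.85 is not a fold. Set against the floor of the MEF array, the ciNPC mean was at least 2.74-fold higher. Probe B did pass without p13 replicate 2 (adjusted p 0.00554, limma), with dim values at the floor and with 4 groups. It passed under no other setting in which it was tested. Within the shared slide, NPC was higher than MEF by 1.56 log2 units with probe A and at least 5.97-fold higher with probe B, 1 array each and no test; both comparisons use the same MEF array.

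Cdon and Boc encode co-receptors that bind Hedgehog ligands beside Patched, and their levels ran in opposite order over the 3 cell types. Cdon probe A, on chromosome 9 at 35315141 to 35315200, read 3.52 and 3.68 in ciNPC p13, 3.18 in ciNPC p5, 4.09 in NPC and 2.06 in MEF. All 3 ciNPC arrays stood between MEF and NPC. The log2 difference was 1.40 from MEF (SE 0.20, adjusted p 0.00216), 2.64-fold, and -0.63 from NPC (SE 0.20, adjusted p 0.236); the first was lost without the intensity trend (adjusted p 0.0544).

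Cdon probe B, 3279 bases further 5′ at 35311862 to 35311922, did not show the same separation. It read 0.07 and 0.59 in ciNPC p13, -0.36 in ciNPC p5, 0.52 in NPC and -0.28 in MEF, so MEF lay within the ciNPC range, and the difference of 0.38 (SE 0.35, adjusted p 0.466) did not pass. NPC was higher than MEF by 2.03 log2 units with probe A and by 0.81 with probe B. The Cdon call against MEF therefore rests on probe A.

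Boc, on chromosome 16 at 44485665 to 44485724, read -0.65 and -0.72 in ciNPC p13, -0.35 in ciNPC p5, -1.30 in NPC and 0.15 in MEF. The ciNPC arrays again lay between the other cell types, here with MEF on top. Neither the difference of -0.73 from MEF (SE 0.26, adjusted p 0.0729) nor that of 0.73 from NPC (SE 0.26, adjusted p 0.295) passed. NPC was 2.73-fold lower than MEF, without a test.

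Of 3 other co-receptor and surface genes, 1 rose and 0 fell against MEF (limma, adjusted p under 0.05 and 2-fold). Of all probes, 12.5% passed higher and 11.3% lower in that comparison. Against NPC 1 rose and 0 fell, where 2.73% of all probes passed higher and 0.0534% lower. Lrp2, which encodes megalin, a large endocytic co-receptor, read -1.25 and -1.15 in ciNPC p13, -0.97 in ciNPC p5, 0.14 in NPC and -2.83 in MEF. It rose by 1.71 against MEF (SE 0.29, adjusted p 0.00449, limma). Its difference of -1.26 from NPC (SE 0.29) did not pass, but did under some other settings. Gas1, a membrane-anchored co-receptor, differed from MEF by -0.80 (SE 0.17, adjusted p 0.00992, limma), under 2-fold. Its dimmer probes differed by 1.31 and -0.39, in opposite directions, and did not pass. Gpc3, a glypican that competes with Patched for ligand, was higher in ciNPC than in NPC by 3.70 (SE 0.28, adjusted p 0.000618, limma). It read 0.84 and 0.87 in ciNPC p13, 1.45 in ciNPC p5 and -2.65 in NPC. Its difference of -0.69 from MEF did not pass, and the other Gpc3 probe was not tested.

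Smo encodes Smoothened, the signal transducer. The probes, 306 bases apart on chromosome 6 at 29711225 to 29711284 (A) and 29710919 to 29710978 (B), gave different answers against MEF. Probe A read 4.61 and 4.60 in ciNPC p13, 4.51 in ciNPC p5, 4.89 in NPC and 4.64 in MEF, and its log2 difference was -0.07 from MEF (SE 0.12, adjusted p 0.721) and -0.31 from NPC (SE 0.12, adjusted p 0.326). Probe B read 0.94 and 0.88 in ciNPC p13, 0.70 in ciNPC p5, 1.00 in NPC and 2.22 in MEF, and its log2 difference from MEF was -1.38 (SE 0.17, adjusted p 0.00119), 2.60-fold lower in ciNPC.

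MEF was the array that differed with probe B, and NPC stood with ciNPC. Within the MEF and NPC slide the difference of NPC from MEF was 0.25 with probe A and -1.21 with probe B. Probe B is the CA-rich 60-mer printed above, and the part of its sequence in this signal was not tested. The probes of Smo thus gave no common difference from MEF.

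Sufu, the suppressor of fused that retains GLI proteins, showed no difference beyond the spread of the ciNPC arrays. Probe A, on chromosome 19 at 46529259 to 46529318, read -2.61 and -2.26 in ciNPC p13, -2.78 in ciNPC p5, -2.37 in NPC and -2.76 in MEF. Probe B, at 46558091 to 46558150 and 353 bases away along the transcript, read -3.01 and -2.06 in ciNPC p13, -2.77 in ciNPC p5, -2.56 in NPC and -2.98 in MEF. With both probes MEF and NPC lay within the ciNPC range. The log2 differences from MEF were 0.21 (SE 0.47) and 0.37 (SE 0.56), with adjusted p of 0.779 and 0.663, and the SEs leave room for a change near 2-fold.

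Of 15 cilium and relay genes, 0 rose and 2 fell against MEF, where 12.5% of all probes passed higher and 11.3% lower. Against NPC 0 of the 15 passed (limma), where 2.78% of all probes did. Spop, which targets GLI proteins for degradation, differed from MEF by -1.28 (SE 0.24, adjusted p 0.00617). Another Spop probe passed at -2.20, and the remaining one differed by -0.57 and did not pass. Evc, which acts with Smoothened at the base of the cilium, differed by -1.02 (SE 0.26, adjusted p 0.0237), a call lost without ciNPC p5, with the authors' table, with quantile normalisation, with the percentile over detected probes, with normexp correction and without the trend, and its other probes differed by 1.00 and 1.93 without passing.

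**Figure D2:**
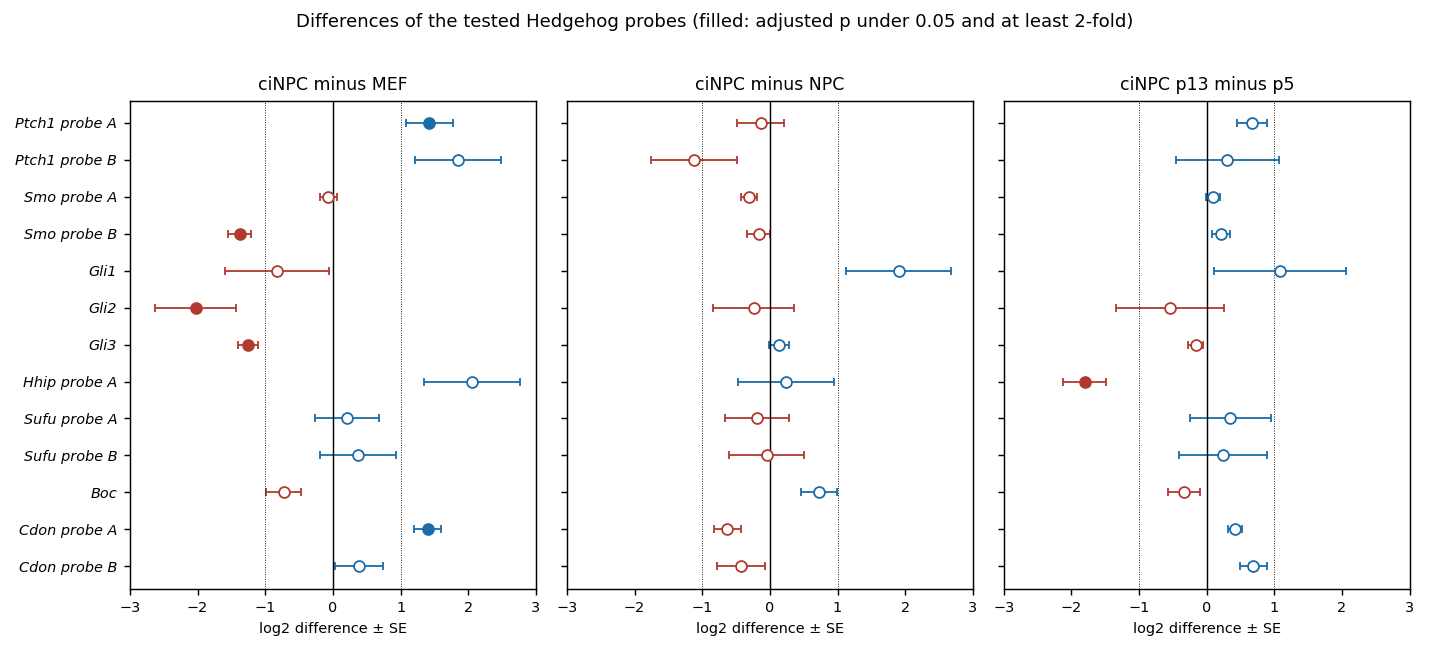
Log2 difference with its standard error for the 13 tested Hedgehog probes, in 3 panels: ciNPC (3 arrays) minus MEF (1), ciNPC minus NPC (1) and ciNPC p13 (2) minus p5 (1). Filled points passed at an adjusted p under 0.05 and at least 2-fold, and dotted lines mark 2-fold; 5 probes are filled in the first panel, 0 in the second and 1, Hhip probe A, in the third.

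The GLI genes encode the transcription factors of the pathway. Each had lower values on all 3 ciNPC arrays than on MEF, as had 39.4% of all probes. Gli1 met the filter through MEF alone, which favours a high MEF value, so its order is no support. Gli2 and Gli3 passed and Gli1 did not, and for Gli1 and Gli2 only 1 ciNPC array was above background. Gli3, on chromosome 13 at 15821502 to 15821561, read 1.66 and 1.76 in ciNPC p13, 1.88 in ciNPC p5, 1.64 in NPC and 3.02 in MEF. All 3 ciNPC arrays and NPC lay below MEF, and NPC lay just under the lowest ciNPC array. The log2 difference was -1.26 from MEF (SE 0.15, adjusted p 0.00102), 2.39-fold lower, and 0.13 from NPC (SE 0.15, adjusted p 0.735). Gli3 passed against MEF under all 13 other settings.

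Gli2, on chromosome 1 at 120731255 to 120731314, was dim. It read -3.61 and -3.97 in ciNPC p13, -3.24 in ciNPC p5, -3.37 in NPC and -1.58 in MEF, and was above background in ciNPC p5, NPC and MEF only. The log2 difference from MEF was -2.03 (SE 0.60, adjusted p 0.0376), with ciNPC p5 the only ciNPC array above background; with dim values at the floor it was -1.51 (adjusted p 0.0264). The call was lost without ciNPC p13 replicate 1 (adjusted p 0.115), without the filter on dim probes (0.137), with quantile normalisation or the authors' deposited table (0.158), with normexp background correction (log2 difference -0.87, adjusted p 0.106) and with the percentile taken over detected probes (0.0576).

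Gli1, a direct read-out of signalling, lies on chromosome 10 at 126766967 to 126767026. It read -2.89 and -3.17 in ciNPC p13, -4.11 in ciNPC p5, -5.29 in NPC and -2.56 in MEF. It was above background on ciNPC p13 replicate 1 and MEF only, and so entered the test through MEF alone. The differences of -0.83 from MEF (SE 0.77, adjusted p 0.468) and 1.90 from NPC (SE 0.77, adjusted p 0.355) did not pass. With 2 of the 3 ciNPC arrays under background, no fold is given for ciNPC; NPC was at least 3.45-fold lower than MEF.

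Within the MEF and NPC slide, NPC differed from MEF by -1.79 log2 units for Gli2 and by -1.39 for Gli3, measured on the same MEF array that serves the ciNPC comparison. Fibroblast markers were lower in ciNPC than in MEF as well (mean log2 levels given above), and their part in the GLI values was not tested.

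Over all members, 4 of 13 probes (Ptch1 probes A and B, Hhip probe A and Cdon probe A) were at least 2-fold higher in NPC than MEF, where 19.2% of all probes were, once signals too dim to call had been set to the floor of their array (its lowest signal well above background). 5 probes (Smo probe B, Gli1, Gli2, Gli3 and Boc) were at least 2-fold lower, where 18.4% were, and 37.6% of all probes were 2-fold apart either way. Of these, Gli1 was among the 13 through MEF alone. At 4-fold, 2 were higher (Ptch1 probe B and Cdon probe A; 6.79% of all probes) and 0 lower (7.38%), with 14.2% of all probes apart either way. Each of these values is a pair of arrays with no test.

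Hhip encodes a membrane protein that binds and sequesters Hedgehog ligands and is induced by the pathway. Probe A, on chromosome 8 at 82494280 to 82494339, read -1.35 and -1.39 in ciNPC p13, 0.43 in ciNPC p5, -1.01 in NPC and -2.82 in MEF. Hhip was lower in p13 than in p5, with a log2 difference of -1.80 (SE 0.32, adjusted p 0.000774), 3.49-fold, and was the 1 probe of the 13 to pass between passages. Of all probes 0.832% passed between passages, 0.200% lower. The fit has 1 residual degree of freedom, and the call was lost with quantile normalisation (adjusted p 0.139), with the authors' deposited table (0.141) and without the intensity trend (0.680).

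All 3 ciNPC arrays exceeded MEF for Hhip probe A, by 2.05 log2 units on average (SE 0.71), without passing at an adjusted p of 0.0663. The highest value was that of ciNPC p5, and without it the difference was 1.45 (adjusted p 0.00790), which passed. It was 2.34 (adjusted p 2.48e-05) when p13 replicate 1 was omitted and 2.36 (adjusted p 0.00304) when p13 replicate 2 was. With every array kept, probe A passed against MEF with the percentile over detected probes and without the filter on dim probes. It also passed over probes above background on all 5 arrays, with dim values at the floor and with 4 groups. It did not pass with the authors' table, quantile normalisation, normexp correction, 1 probe per gene or no trend. NPC was 3.52-fold higher than MEF. Probe B, at 82490729 to 82490788, was under background on all 5 arrays and was not tested.

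No other member probe passed between passages. Cdon was higher in p13 than in p5 with both probes, by 0.42 (SE 0.10, adjusted p 0.0109) and 0.69 (SE 0.20, adjusted p 0.0386), each under 2-fold. Ptch1 probe A differed by 0.67 (SE 0.22, adjusted p 0.0785). Of the other Hedgehog genes, 0 of 40 passed between passages at this threshold (limma), where 0.832% of all probes did.

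**Figure D3:**
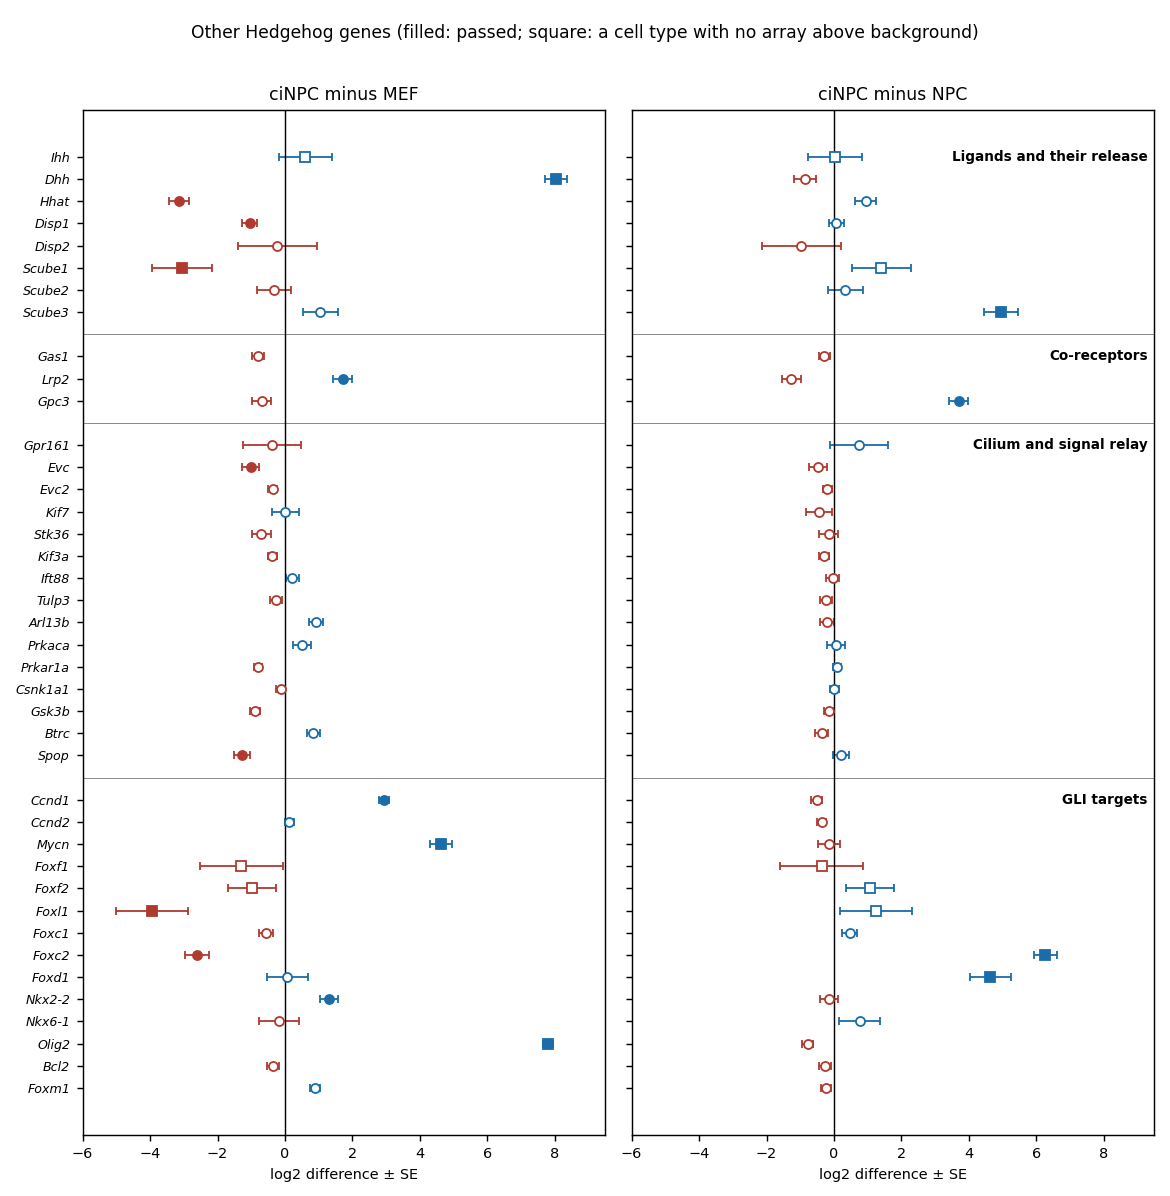
Log2 difference with its standard error for the brightest probe of each of the other Hedgehog genes that could be tested, grouped by role: ciNPC minus MEF on the left and ciNPC minus NPC on the right. Filled points passed; squares mark genes with no array above background in 1 of the cell types or both, for which the measured difference is not a fold. Dhh, Mycn and Olig2 lie far to the right against MEF and within 1 log2 unit of 0 against NPC, and Foxc2, Foxd1, Gpc3 and Scube3 are the filled points against NPC.

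Of 16 genes known as GLI targets in other settings, 14 were tested, and 4 rose and 2 fell against MEF, where 12.5% of all probes passed higher and 11.3% lower. The median log2 difference was -0.05, with -0.09 over all probes. Ccnd1, the cyclin D1 gene, read 7.21 and 7.03 in ciNPC p13, 6.89 in ciNPC p5, 7.56 in NPC and 4.11 in MEF, a difference from MEF of 2.93 (SE 0.16, adjusted p 4.88e-05). Mycn, a driver of progenitor proliferation, rose at least 12.8-fold (adjusted p 0.000126), and Olig2, a ventral and oligodendrocyte-lineage factor, at least 217-fold (adjusted p 1.46e-06). Nkx2-2, a ventral neural tube factor, rose by 1.30 (SE 0.27, adjusted p 0.0100, limma). Its dimmer probe passed in the same direction. The measured 7.48 of that probe is not a fold, because at its brightness it places MEF under the array floor (-4.29).

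The genes that fell were Foxc2 and Foxl1, both forkhead factors of mesenchyme. Foxc2 read -0.37 and -0.54 in ciNPC p13, 0.18 in ciNPC p5, -6.51 in NPC (under background) and 2.36 in MEF. It was lower in ciNPC than in MEF by a log2 difference of -2.60 (SE 0.35, adjusted p 0.00171) and at least 17.2-fold above NPC (adjusted p 0.000148), so that ciNPC lay between the other cell types. Foxl1 was at least 3.36-fold lower in ciNPC than in MEF (adjusted p 0.0286, limma), a call lost without ciNPC p13 replicate 1. It was under background on the 3 ciNPC arrays and in NPC, and so entered the test through MEF alone. Foxd1, which was under background in NPC, was at least 5.74-fold above NPC in ciNPC (adjusted p 0.00880), a call lost with the authors' table, with quantile normalisation, with normexp correction and without the trend. The 2 targets that were not tested, the floor plate factor Foxa2 and the ventral forebrain factor Nkx2-1, were under background on all 5 arrays.

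Over the 42 other Hedgehog genes together, 40 were tested. Against MEF, 6 rose and 7 fell, or 8 and 5 with the percentile over detected probes and 7 and 5 with quantile normalisation; 23.8% of all probes passed. Against NPC, 4 rose and 0 fell, where 2.78% of all probes passed. Under other settings Lrp2 passed as lower than NPC: normexp, dim values at the floor, 4 groups, without ciNPC p5 and without p13 replicate 2. Hhat passed as higher than NPC with 4 groups. Further calls against MEF were lost for Disp1 (percentile over detected probes, normexp), Lrp2 (normexp), Nkx2-2 (normexp, no trend) and Spop (no trend), and against NPC for Scube3 (authors' table, quantile normalisation) and Gpc3 (no trend). Genes under background on some array could not be tested among probes above background on all 5.

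The genes most like Gli3 over the 5 arrays, after each probe was centred on its own mean, were Rcn1, Btbd6 and Utrn, with root mean square differences of 0.0364, 0.0389 and 0.0392 log2 units among 11372 genes. For Ptch1 probe A they were Tmem178b (0.0647), H3c3 (0.0748) and Egln1 (0.0758). For Gli1 the nearest were Ptk2b (0.232), Tead3 (0.340) and Hpn (0.347), a looser match to a probe that is under background on 3 arrays. Each likeness rests on 5 arrays and describes these arrays only.

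The 9-base GLI recognition sequence gaccaccca was sought on both strands in RefSeq promoter windows from 250 bases before to 50 after the gene start (GRCm38.p6), which were available for 7 members. It was present in 0 of these 7 windows and in 83 of 32851 windows of the same length (0.253%). The absence of these letters from a 300-base window does not bear on binding elsewhere.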

How the data were processed

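Total RNA from 5 mouse samples was labelled with Cy3 and hybridised to Agilent 60-mer arrays, per the labels' protocols. The authors extracted spots with Agilent Feature Extraction 10.7.1.1 on an mm9 design, per the file headers; the deposited array files give processed intensity, background-subtracted within the array. The deposited value table holds log2 values whose columns have medians of 5.65 and correlate at 0.995 to 0.999 with each array's own log2 signal; its scaling is not stated and was read as quantile normalisation.

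The values here are log2 processed intensity minus each array's 75th percentile, with spots marked non-uniform or outlying left out and the spots of a probe averaged. Fits used lmFit and eBayes (trend on) of limma 3.58.1 under R 4.3.3, over 35588 probes. ciNPC against MEF or NPC used 3 groups, with p5 and p13 pooled (2 residual and 4.70 prior degrees of freedom). The comparison of p13 with p5 used 4 groups (1 residual and 24.5 prior degrees). The prior is the variance that the fit borrows from all probes. The lone arrays were assumed to vary like ciNPC. NPC against MEF had no test. "At least" folds set the bright mean against the higher of the dim probe's own signal and the lowest well-above-background signal of its array. Probes were matched by the symbol in the files; 14 of 15 members' accessions carry that symbol in RefSeq. The sequences printed are those of the array files. The number of arrays limits the precision.

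The members, gene lists and tests were chosen with earlier results of these data known. Named genes were all members, other Hedgehog genes that passed, ligands and co-receptors, and the 3 genes most like Gli1, Gli3 and Ptch1; the 2 targets not tested were named after their values were seen. Exon and UTR annotation on mm9 was not used here. 1 gene of the lists is not reported here.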

Additional observations from a re-analysis of the deposited data

How the results depend on the processing

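Against MEF, 3 member probes passed with the authors' deposited table, with quantile normalisation and without the intensity trend, and 5 to 7 when 1 ciNPC array was left out. Against NPC, 991 of all probes passed, against 573, 579, 587, 347 and 1768 with the authors' table, with quantile normalisation, over probes above background on all 5 arrays, without the trend and with 4 groups, and 1267 to 1868 when 1 ciNPC array was left out. Between passages, 296 of all probes passed, against 3, 3, 116, 151, 463 and 0 with the authors' table, quantile normalisation, probes above background on all 5 arrays, 1 probe per gene, dim values at the floor and no trend; member calls were 0 with the first, second and last of these. At least 4-fold apart, NPC against MEF had 0 members after normexp correction. The other Hedgehog genes, recomputed under these settings by a choice made after the data were seen, had 7 calls against MEF over probes above background on all 5 arrays, and against NPC 2 (authors' table, quantile, no trend) and 1 (probes above background on all 5 arrays). Taking the percentile over detected probes moved the median of all probes against MEF to 0.06, against -0.09. Signs turned only for differences that did not pass. Against MEF these were Smo probe A (0.16 with the authors' table, 0.16 with quantile normalisation, 0.092 with detected probes) and Sufu probe A (-0.10 with the authors' table and with quantile normalisation). Against NPC they were Gli2 (0.10 with normexp, 0.28 at the floor), Sufu probe A (0.12 with normexp), Sufu probe B (0.084 with detected probes, 0.072 with normexp, and -0.32 to 0.15 with an array left out), Ptch1 probe A (-0.34 to 0.087) and Hhip probe A (-0.36 to 0.55) with an array left out. Between passages they were Ptch1 probe B (-0.61, -0.60), Sufu probe A (-0.15, -0.15) and Sufu probe B (-0.17, -0.17) with the authors' table and quantile normalisation, and Gli2 (0.029 with normexp, 0.23 at the floor), and, with no test, Ptch1 probe B without p13 replicate 1 (-0.25) and Sufu probe B without p13 replicate 2 (-0.24). The cause was not tested. Leaving out a p13 array left no residual degree of freedom between passages, so no test was run. No paired analysis was possible, because the labels give no pairing of cultures and MEF, NPC and ciNPC p5 have 1 array each.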
